A study of Mus musculus with 6 samples.

Results

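The genes described are those encoding collagen alpha chains, taken as every gene of the deposited expression table whose symbol has the form Col, a type number, a, and a chain number. There were 44 such genes among the 29072 genes of the table, each represented by 1 RefSeq coding transcript (of several, the one with the highest mean). They comprised 9 genes of the fibrillar types 1, 2, 3, 5 and 11, 8 genes of the basement membrane types 4, 15 and 18, and 27 genes of other types. Interscapular brown adipose tissue was compared between mice of genotype UCP1(-/-), called knockout here, and wildtype mice, both on the strain C57BL/6J, with 3 libraries of each. UCP1 is the uncoupling protein with which brown adipocytes release heat. The labels give no age, sex, housing temperature or design of the deleted allele, and do not say that the libraries came from separate animals, so p-values measure only the spread between these libraries, which may be technical.

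Collagens are secreted proteins in which alpha chains wind into a triple helix. Fibrillar collagens assemble into the cross-linked fibrils that give connective tissue its tensile strength, while type 4 collagen forms the sheet-like network of basement membranes that surround adipocytes, blood vessels, nerves and muscle fibres. In adipose tissue, fibrillar collagen transcripts come mainly from fibroblasts and related stromal cells, and type 4 chains are made by adipocytes and endothelial cells as well.

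Expression was given as RPKM, a read count divided by transcript length and by the mapped reads of each library. This adjusts for length and depth, but not for differences in the composition of the libraries. Median-of-ratios scaling factors of the RPKM values were 1.02, 1.04 and 1.03 in the knockout libraries and 0.981, 0.956 and 0.978 in the wildtype libraries. The main test used RPKM without this scaling, which was an alternative. Differences were tested with limma, with Benjamini-Hochberg adjustment over all 11562 genes that reached a group mean of 1 RPKM, and a gene was said to rise or fall at an adjusted p under 0.05. The log2 changes are of RPKM + 1, knockout minus wildtype, and understate the change of genes of low level. Implied depth was between 15800000 and 18000000 reads per library. Ucp1 itself was at 375, 389 and 372 RPKM in the knockout libraries and at 3096, 1714 and 3151 RPKM in the wildtype libraries, a fall of the labelled gene (log2 change -2.75, adjusted p 4.0e-04). Transcript remained in the knockout, and the labels do not state which part of the gene was deleted. Wildtype library 2 stood apart in Ucp1 and, as described next, in several collagen genes. All 15 skeletal muscle marker genes rose in the knockout, with summed levels of 1848, 1838 and 1630 RPKM against 216, 251 and 37.1 RPKM, so that wildtype library 3 stood apart in that list.

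The basement membrane chains Col4a1 and Col4a2 had the highest mean levels of all collagen transcripts in wildtype. Col4a1, at 63.9 ± 8.68 RPKM (SD, n = 3) in wildtype, ranked first and Col4a2, its partner chain in the main type 4 trimer, second at 47.6 ± 10.3 RPKM (SD, n = 3). The fibrillar genes Col3a1, Col1a2 and Col1a1 followed at 39.2 ± 5.72, 21.2 ± 3.92 and 17.9 ± 3.54 RPKM (SD, n = 3 each). Neighbours in this order were separated by less than the sum of their SDs in wildtype, except Col3a1 from Col1a2. Within each of the 6 libraries, Col4a1 was above Col4a2 (ratio 1.26 to 1.48) and Col1a1 below Col1a2 (ratio 0.799 to 0.913). The order of Col4a2 and Col3a1 differed between libraries. In the knockout the mean of Col3a1, 57.7 ± 7.50 RPKM (SD, n = 3), lay above that of Col4a2, 55.8 ± 0.572 RPKM (SD, n = 3), by less than the SD of Col3a1. At the other end, 25 of the 44 genes were below a mean of 1 RPKM in both groups, and Col9a1, a fibril-associated cartilage chain, was listed at 0 in every library. The threshold fell between Col8a1, with a knockout mean of 1.11 and a wildtype mean of 1.0 RPKM, and Col23a1, with means of 0.831 and 0.712 RPKM.

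**Figure D1:**
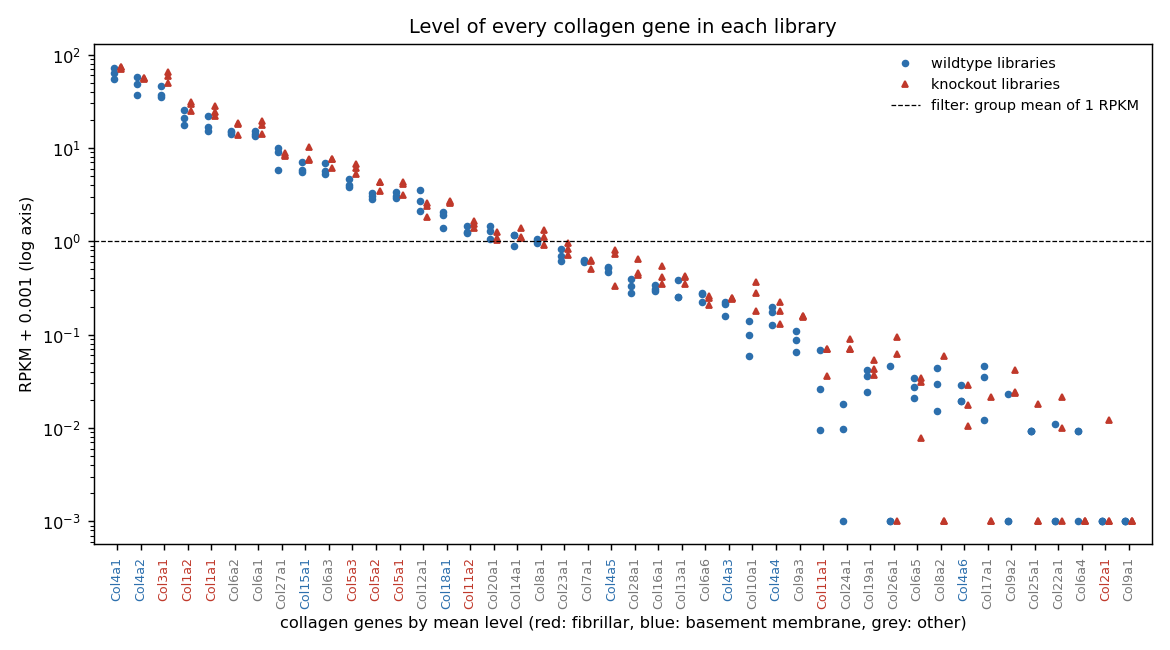
Level of each of the 44 collagen genes in the 3 wildtype (circles) and 3 knockout (triangles) libraries, as RPKM + 0.001 on a log axis, ordered by mean level, with the filter of 1 RPKM as a dashed line. Col4a1, Col4a2 and Col3a1 lie highest and 25 genes lie under the filter.

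The first question is whether collagen transcripts differed between the genotypes. Of the 19 collagen genes tested, all of which had a mean of at least 1 RPKM in both groups, 2 rose in the knockout, 0 fell and 17 did not pass. Among all genes tested, 7.67% passed, as 6.95% rose and 0.718% fell, so 2 of 19 is close to the background share. Both that rose, Col3a1 and Col5a3, were fibrillar. At an unadjusted p under 0.05 there were 7 collagen genes, all with higher levels in the knockout, against 23.5% of all genes tested. All 3 knockout libraries lay above all 3 wildtype libraries for 5 of the 19 genes, against 24.2% of all genes, and the reverse held for 0 of the 19, against 5.11%. The log2 change was above 0 for 17 of the 19 genes and for 68.5% of all genes tested, and its median was 0.22 over the 19 genes and 0.075 over all. In bulk tissue, fewer cells of a type and less RNA per cell cannot be told apart, and this holds for every difference given here.

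**Figure D2:**
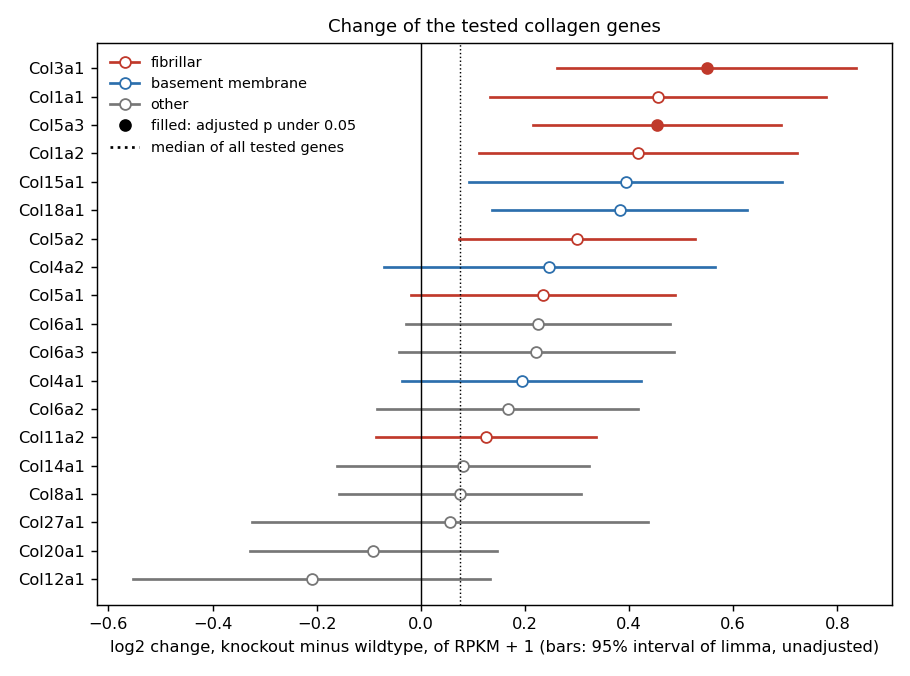
Log2 change of RPKM + 1, knockout minus wildtype, for the 19 tested collagen genes, coloured by class, with the unadjusted 95% interval of limma and the median of all tested genes as a dotted line. Filled points mark Col3a1 and Col5a3, the genes with an adjusted p under 0.05, and the 2 genes left of 0 are Col12a1 and Col20a1.

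Sequence immediately upstream of the annotated start is shown for the fibrillar genes Col3a1 and Col5a3, the collagen genes that rose, and for Col1a2, which did not pass. Each is the 250 bases before the RefSeq start on build GRCm38.p6, written 5′ to 3′ on the strand of the gene, with letters in capitals that match the CCAAT box motif, the GC box motif GGGCGG or the TATA box motif TATAAA, searched on both strands. Col3a1 is at chr1:45311288-45311537 on the plus strand, Col5a3 at chr9:20815068-20815317 on the minus strand, and Col1a2 at chr6:4505368-4505617 on the plus strand.
Col3a1: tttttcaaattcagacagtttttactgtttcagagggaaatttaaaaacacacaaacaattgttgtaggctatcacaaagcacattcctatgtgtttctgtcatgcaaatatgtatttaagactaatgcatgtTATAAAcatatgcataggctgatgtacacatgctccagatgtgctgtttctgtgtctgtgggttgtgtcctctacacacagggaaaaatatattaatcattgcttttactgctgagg
Col5a3: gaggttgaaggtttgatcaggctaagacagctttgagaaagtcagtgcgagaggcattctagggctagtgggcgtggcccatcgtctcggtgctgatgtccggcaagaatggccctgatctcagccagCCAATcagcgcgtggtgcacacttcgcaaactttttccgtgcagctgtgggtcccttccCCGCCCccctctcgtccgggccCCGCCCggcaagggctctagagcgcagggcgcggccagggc
Col1a2: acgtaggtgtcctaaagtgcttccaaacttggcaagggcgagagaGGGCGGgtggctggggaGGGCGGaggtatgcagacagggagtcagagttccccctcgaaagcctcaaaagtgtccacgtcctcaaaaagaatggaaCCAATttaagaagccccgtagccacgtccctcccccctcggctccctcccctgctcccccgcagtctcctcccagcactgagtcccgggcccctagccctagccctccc

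The Col3a1 window held 1 TATAAA, near the middle of the window rather than beside the annotated start, and neither of the other motifs. Those of Col5a3 and Col1a2 each held 1 CCAAT box and 2 GC box motifs, which in Col5a3 read as CCGCCC because they lie on the opposite strand. Of all 32851 promoter windows of this length in the RefSeq table, 33.8% held the CCAAT box, 32.7% the GC box and 12.4% the TATA box motif. Of the 38 windows of collagen genes, which covered 35 of the 44 genes, 13, 22 and 5 held them. These matches are letters in a window and were not tested as binding sites.

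Col3a1 encodes the chain of type 3 collagen, a homotrimer that forms fibrils together with type 1 in soft tissues. Its level was 49.7, 64.7 and 58.8 RPKM in the knockout libraries and 34.8, 45.6 and 37.1 RPKM in the wildtype libraries. Each knockout library was above each wildtype library, the nearest being knockout library 1 and wildtype library 2. The mean was 1.47 times higher in the knockout (log2 change 0.55, SE 0.13, limma adjusted p = 0.0353). All 12 transcript rows of the gene with a mean of at least 1 RPKM were higher in the knockout without overlap. Those rows share reads and are not independent.

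Col5a3 encodes a chain of type 5 collagen, which lies inside type 1 fibrils and limits their diameter. Among the type 5 genes Col5a3 had the highest mean level here. Its level was 5.29, 6.12 and 6.81 RPKM in the knockout and 3.79, 4.64 and 4.04 RPKM in the wildtype libraries. The groups did not overlap and the mean was 1.46 times higher in the knockout (log2 change 0.45, SE 0.10, limma adjusted p = 0.0357). Where whole reads could be recovered from an Ensembl transcript row of each gene, they numbered between 121 and 249 per library for Col5a3 and between 49 and 134 for a short transcript of Col3a1.

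Type 1 collagen, the main fibril protein of most connective tissue, is a trimer of chains from Col1a1 and Col1a2. Col1a1 was at 21.7, 28.2 and 24.5 RPKM in the knockout and 16.6, 21.9 and 15.3 RPKM in the wildtype libraries. Knockout library 1 lay just below wildtype library 2, so the groups overlapped. With a mean 1.38 times higher in the knockout, Col1a1 did not pass (log2 change 0.46, SE 0.14, adjusted p = 0.0950). Col1a2 was at 25.1, 30.9 and 29.4 RPKM in the knockout and 20.8, 25.3 and 17.5 RPKM in the wildtype libraries. The overlap involved the same 2 libraries, and Col1a2 did not pass either (log2 change 0.42, SE 0.13, adjusted p = 0.104).

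Among the other type 5 chains, Col5a2 was at 3.43, 4.30 and 4.30 RPKM in the knockout and 2.81, 3.28 and 3.09 RPKM in the wildtype libraries, without overlap, and did not pass (log2 change 0.30, adjusted p = 0.112). Col5a1 averaged 3.85 ± 0.634 RPKM in the knockout against 3.10 ± 0.228 (SD, n = 3 in each group), with a log2 change of 0.23 (limma adjusted p = 0.245). Col11a2, a chain of cartilage type 11 collagen, averaged 1.52 ± 0.125 against 1.31 ± 0.132 RPKM (SD, n = 3 in each group), with a log2 change of 0.13 (limma adjusted p = 0.459). The remaining fibrillar genes, Col11a1 and the cartilage gene Col2a1, were under 0.1 RPKM in both groups and were not tested. All 7 tested fibrillar genes had a log2 change above 0, against 68.5% of all genes tested, with a median of 0.42. Of them, 5 had an unadjusted p under 0.05, against 23.5% of all genes tested. In the RefSeq table Col3a1 and Col5a2 are neighbouring genes.

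**Figure D3:**
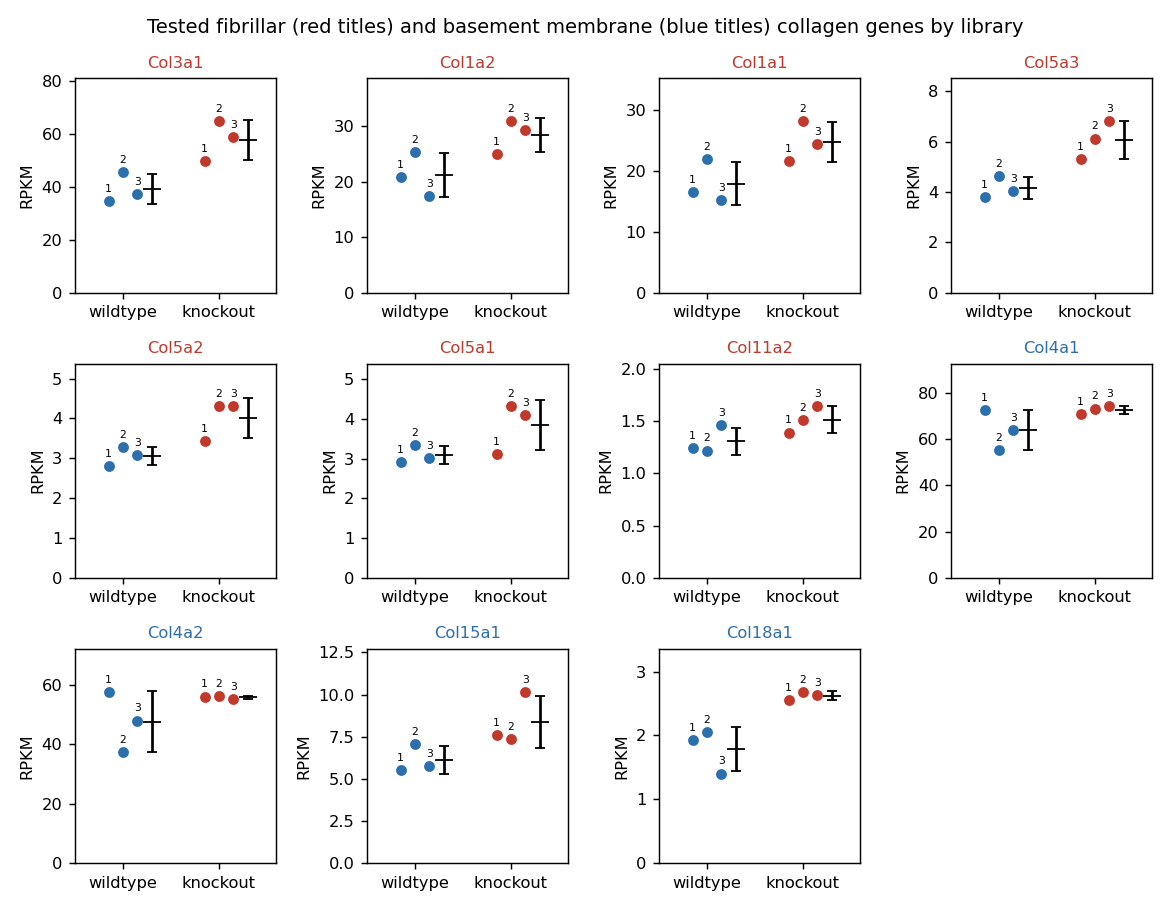
RPKM of the 11 tested fibrillar (red titles) and basement membrane (blue titles) collagen genes in each library, with group means and SDs, each axis starting at 0. The groups do not overlap for Col3a1, Col5a3, Col5a2, Col15a1 and Col18a1.

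No basement membrane collagen gene passed the test: by limma 0 of 4 tested genes rose or fell and 2 had an unadjusted p under 0.05, while limma-voom on recovered reads called 1 of 5, Col18a1. The median log2 change was 0.31 and all 4 were above 0, against 0.075 and 68.5% for all genes tested. Of all genes tested, 23.5% had an unadjusted p under 0.05, and limma-voom called 479 of the 7789 genes it tested. Col4a1 was at 70.9, 73.3 and 74.2 RPKM in the knockout and 72.6, 55.2 and 64.0 RPKM in the wildtype libraries. Wildtype library 1 reached the knockout level and wildtype library 2 was lowest, so the groups overlapped (log2 change 0.19, 95% interval -0.036 to 0.42, adjusted p = 0.288). Col4a2 was at 56.1, 56.3 and 55.2 RPKM in the knockout and 57.7, 37.2 and 48.0 RPKM in the wildtype libraries, in the same order over the wildtype libraries (log2 change 0.25, 95% interval -0.071 to 0.56, adjusted p = 0.324). Both chains were nearly constant over the knockout libraries, with SDs of 1.68 and 0.572 RPKM against 8.68 and 10.3 RPKM in wildtype (n = 3 each).

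Col15a1 and Col18a1 encode the related chains of types 15 and 18, which carry endostatin-like domains at their ends. Col15a1 was at 7.59, 7.39 and 10.2 RPKM in the knockout and 5.49, 7.09 and 5.77 RPKM in the wildtype libraries, and did not pass (log2 change 0.39, SE 0.13, adjusted p = 0.115). Col18a1 was at 2.55, 2.69 and 2.63 RPKM in the knockout and 1.93, 2.05 and 1.40 RPKM in the wildtype libraries (log2 change 0.38, SE 0.11, adjusted p = 0.0706). Neither gene's groups overlapped, by a narrow margin for Col15a1. The limma-voom fit gave Col18a1 a log2 change of 0.66 (adjusted p = 0.0141) from a transcript row with between 122 and 267 reads per library. Col18a1 passed in 1 of its 14 alternative settings, with log2 changes from 0.17 to 0.66 and a limma adjusted p of up to 0.649. The minor type 4 genes Col4a3, Col4a4, Col4a5 and Col4a6, whose chains form the specialised networks of kidney, lung and muscle, averaged between 0.0181 and 0.621 RPKM and were not tested.

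Of the 27 other collagen genes, 8 were tested. Limma called 0 of them at an adjusted p under 0.05 and 0 at an unadjusted p under 0.05, and limma-voom called 0, with 1 at an unadjusted p under 0.05. Their median log2 change was 0.08. Type 6 collagen, which forms beaded microfibrils around cells and is abundant in fat, was represented by Col6a1 at 17.0 ± 2.62 RPKM in the knockout against 14.3 ± 0.732 RPKM in wildtype and by Col6a2 at 16.8 ± 2.54 against 14.8 ± 0.639 RPKM (SD, n = 3 each). Their log2 changes were 0.22 and 0.17 (limma adjusted p 0.263 and 0.400), and Col6a3 gave 0.22 (adjusted p 0.289). Col27a1, a fibril-forming chain outside the classical types, was level between the groups in mean, at 8.46 ± 0.302 and 8.30 ± 2.27 RPKM (SD, n = 3 each), with a wider spread in wildtype.

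The genes with a log2 change below 0 were the fibril-associated Col12a1, whose mean was 2.25 ± 0.392 RPKM in the knockout against 2.79 ± 0.708 (SD, n = 3 in each group) at a log2 change of -0.21 (limma adjusted p = 0.439), and Col20a1, at 1.12 and 1.27 RPKM (log2 change -0.09, adjusted p = 0.644). Of the 6 transcript rows of Col12a1 with a mean of at least 1 RPKM, 0 were higher in the knockout. Col14a1, also fibril-associated, and the network-forming Col8a1 had log2 changes of 0.08 and 0.07 (adjusted p 0.696 and 0.707). The genotypes overlapped for each of these 4 genes.

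Among the 25 genes under the filter, 14 had a mean below 0.1 RPKM over the 6 libraries and 11 had a higher one. For 7 of the 25, all knockout libraries lay above all wildtype libraries: Col28a1, Col16a1, Col4a3, Col10a1, Col9a3, Col24a1 and Col9a2, named here after their values were seen. The same held for 13.8% of the 8965 genes under the filter with a value above 0 in any library, whose levels were not matched to those of the collagen genes, and for 24.2% of the genes tested. Col10a1, the collagen of growth-plate cartilage, was at 0.279, 0.364 and 0.177 RPKM in the knockout and 0.0587, 0.0984 and 0.138 RPKM in the wildtype libraries. At this depth such levels rest on few reads, and when all genes with a value above 0 were fitted without a filter, limma called 0 of 43 collagen genes, with 11 at an unadjusted p under 0.05. Of all 20527 genes in that fit, 749 were called and 3807 had an unadjusted p under 0.05. That fit also lost Col3a1 and Col5a3, at adjusted p of 0.0742 and 0.0772.

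Summed over the class, fibrillar collagen genes reached 109.8, 140.1 and 129.6 RPKM in the knockout libraries and 83.0, 105.4 and 81.5 RPKM in the wildtype libraries, a ratio of means of 1.41. The lowest knockout sum was just above that of wildtype library 2. Basement membrane genes summed to 138, 141 and 143 RPKM against 139, 102 and 120 RPKM (ratio 1.17), and other collagen genes to 51.9, 63.0 and 61.2 RPKM against 53.7, 55.7 and 47.4 RPKM (ratio 1.12), so both of these overlapped. Sums are dominated by their few most abundant genes and were not tested. Within wildtype, library 2 had the highest fibrillar and the lowest basement membrane sum.

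**Figure D4:**
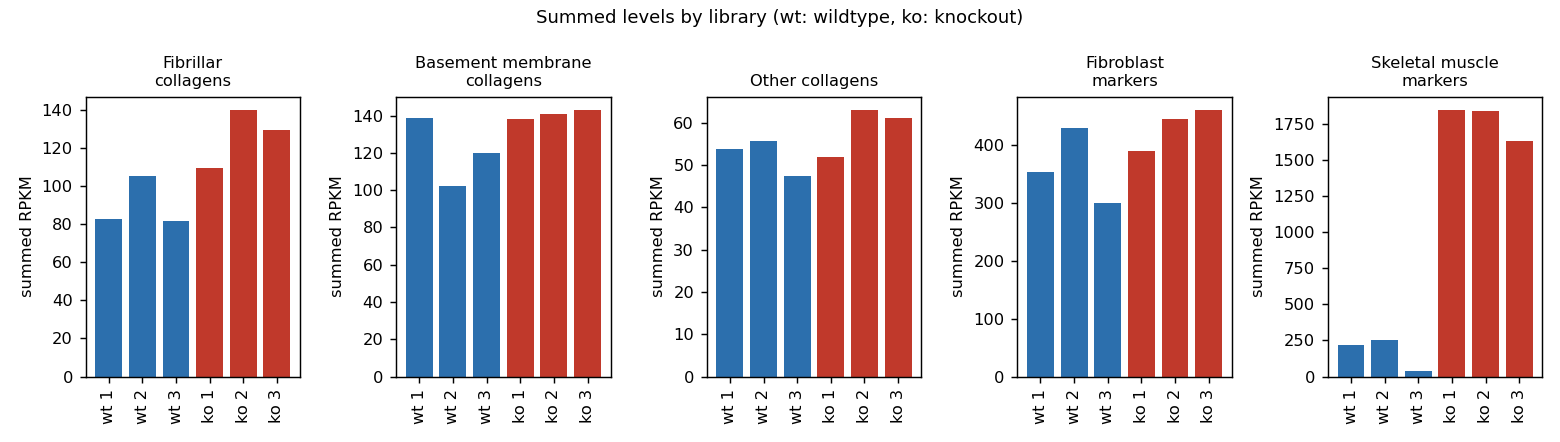
Summed RPKM of collagen classes and marker gene lists in each of the 3 wildtype (wt) and 3 knockout (ko) libraries, with axes starting at 0. Wildtype library 2 has the highest fibrillar sum of the wildtype libraries and the lowest basement membrane sum.

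The ratios of the paired chains of types 1, 6 and 4 overlapped between the genotypes. The ratio of Col1a1 to Col1a2 in RPKM was 0.867, 0.913 and 0.835 in the knockout and 0.799, 0.867 and 0.872 in the wildtype libraries, and that of Col6a1 to Col6a2 was 1.02, 1.07 and 0.951 against 0.917, 0.979 and 1.01. For Col4a1 to Col4a2 it was 1.27, 1.30 and 1.34 against 1.26, 1.48 and 1.33. The highest, 1.48, was that of wildtype library 2. The ratio of Col5a3 to Col5a1, both chains of type 5, was 1.69, 1.42 and 1.66 in the knockout and 1.30, 1.38 and 1.34 in the wildtype libraries, without overlap, although the difference between the genes was not tested. Col3a1 relative to Col4a1 was at 0.701, 0.882 and 0.792 against 0.479, 0.827 and 0.580, with wildtype library 2 inside the knockout range.

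Fibroblast marker genes, which mark the main source of fibrillar collagen, gave 1 of 11 tested genes that rose, the surface protein gene Thy1 (4.53 ± 0.460 against 2.75 ± 0.263 RPKM, SD, n = 3 each, limma adjusted p = 0.0097). Among all genes tested, 6.95% rose. At an unadjusted p under 0.05 there were 3 of the 11, against 23.5% of all genes tested. The fibroblast markers had a median log2 change of 0.24, and their summed level was 389, 445 and 460 RPKM in the knockout and 353, 428 and 299 RPKM in the wildtype libraries, which overlapped. Much of each sum was Gsn, at 231, 267 and 290 RPKM in the knockout and 208, 261 and 171 RPKM in the wildtype libraries. In wildtype, library 2 had the highest sum of fibroblast markers as well as of fibrillar collagen genes. Their part in the collagen differences was not tested, nor was that of the skeletal muscle markers, which had a median log2 change of 3.58.

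Of the other markers, macrophage genes gave 1 of 10 that rose, Mpeg1, a pore-forming protein gene (3.44 ± 0.564 against 1.41 ± 0.353 RPKM, SD, n = 3 each, limma adjusted p = 0.0058), and 8 of 10 at an unadjusted p under 0.05, with sums from 76.7 to 105 RPKM in the knockout and from 46.9 to 75.2 RPKM in wildtype. Among all genes tested, 6.95% rose and 23.5% had an unadjusted p under 0.05. Endothelial genes gave 0 of 10 by limma, 1 at an unadjusted p under 0.05 and 0 by limma-voom (sums 199 to 221 against 193 to 216 RPKM), and pericyte and smooth muscle genes 0 of 10, 0 and 0 (123 to 135 against 136 to 152 RPKM). Schwann cell genes gave 0 of 6, 0 and 0 (107 to 116 against 79.7 to 122 RPKM) and adipocyte genes 0 of 8, 0 and 0 (11157 to 12616 against 10178 to 11839 RPKM). Brown adipocyte genes gave 1 that rose, Elovl3, and 2 that fell, Ucp1 and Prdm16, of 8, with 4 at an unadjusted p under 0.05. Limma-voom called 0 of them and had no reads recovered for Ucp1. Their sums, 2760 to 2858 against 3945 to 5546 RPKM, include Ucp1 itself, at 372 to 389 against 1714 to 3151 RPKM. The median log2 change of this list was 0.12. Elovl3 and Prdm16 each lost the call in 7 of 14 alternatives, Elovl3 after median-of-ratios scaling (adjusted p = 0.0685) and Prdm16 with limma-voom (adjusted p = 0.416) among them. Tendon and cartilage genes, 1 of 10 of which was tested and did not pass, with 0 at an unadjusted p under 0.05, summed to 3.52 to 4.09 RPKM in the knockout and 2.14 to 3.25 RPKM in wildtype, and limma-voom called 1, Cilp. Over all genes, limma-voom called 479 of the 7789 it tested. No marker of these lists was at 0 in every library. What any of these lists contributes to the collagen values was not tested.

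Genes that make, process or bind collagen were then examined over 6 lists, in which 3 of 63 tested genes rose and 0 fell. This is not above the background, since 6.95% of all genes tested rose. Of 25 genes of collagen biosynthesis and secretion, 21 were tested and 1 rose: Sec24d, a coat protein of the vesicles that carry procollagen out of the endoplasmic reticulum. It was at 4.37, 4.58 and 3.26 RPKM in the knockout and 2.46, 2.32 and 1.91 RPKM in the wildtype libraries, without overlap (log2 change 0.65, SE 0.12, limma adjusted p = 0.0161). The median log2 change of the list, 0.05, was below that of all genes tested. At an unadjusted p under 0.05 there were 6 of the 21, against 23.5% of all genes tested. Mia2 and P4ha3 were listed at 0 in every library.

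Of 8 procollagen processing genes 4 were tested. Limma called 0 of them, with 3 at an unadjusted p under 0.05, against 23.5% of all genes tested, and limma-voom called 0. The smallest p was that of Pcolce, an enhancer of the protease that trims fibrillar procollagens, with 20.9 ± 1.13 RPKM in the knockout against 17.3 ± 0.933 (SD, n = 3 in each group; limma adjusted p = 0.0857). Of 10 collagen receptor genes 5 were tested and 1 rose, against 6.95% of all genes tested. That gene alone had an unadjusted p under 0.05, against 23.5% of all genes tested, and it was called by limma-voom. This was Ddr1, a receptor tyrosine kinase activated by collagen, at 3.32, 3.46 and 3.33 RPKM in the knockout and 2.55, 2.17 and 2.49 RPKM in the wildtype libraries (log2 change 0.36, SE 0.08, limma adjusted p = 0.0344).

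Of 17 basement membrane partner genes 13 were tested, 1 rose and 6 had an unadjusted p under 0.05, against 23.5% of all genes tested, with a median log2 change of 0.16. Limma-voom called 1 gene of this list, Agrn, and not Sparc (adjusted p = 0.0619), against 479 of the 7789 genes it tested. The gene that rose by limma was Sparc, a collagen-binding protein of the matrix, more abundant here than any collagen chain. It was at 362, 374 and 375 RPKM in the knockout and 295, 289.9 and 305 RPKM in the wildtype libraries, a narrow spread within each group and no overlap (log2 change 0.32, SE 0.07, limma adjusted p = 0.0291). The 10 small leucine-rich proteoglycans that coat fibrils gave 0 of 7 tested, with 0 at an unadjusted p under 0.05 and 0 by limma-voom. The smallest p of that list was that of Lum, at 13.7 ± 1.39 against 11.5 ± 1.69 RPKM (SD, n = 3 each, limma adjusted p = 0.247). Lum and Dcn stand in the fibroblast list too.

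Genes of TGF-beta signalling, a pathway that induces fibrillar collagen genes in many cells, gave 0 of 13 tested by limma and 0 by limma-voom. At an unadjusted p under 0.05 there were 2, against 23.5% of all genes tested, and the median log2 change was -0.03. Tgfbr3, a co-receptor, had the smallest p, with 17.2 ± 1.05 RPKM in the knockout against 20.5 ± 2.04 (SD, n = 3 in each group) and a log2 change of -0.24 (limma adjusted p = 0.150).

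The calls of Col3a1 and Col5a3 depended on the processing. After median-of-ratios scaling both missed the threshold (adjusted p = 0.0797 and 0.0816) at log2 changes of 0.47 and 0.38, while all 7 fibrillar genes stayed above 0, with a median of 0.33, against 0.0030 over all genes. That scaling also moved the share of higher calls among all genes called from 90.6% to 79.3%. Leaving out knockout library 2 or 3, or wildtype library 1 or 3, left 0 collagen genes called, with adjusted p from 0.0793 to 0.132 for Col3a1 and from 0.0745 to 0.124 for Col5a3. Without wildtype library 2, 4 genes rose: Col3a1, Col5a3, Col1a1 (adjusted p = 0.0174) and Col1a2 (adjusted p = 0.0262). The limma-voom fit called Col3a1, Col5a3 and Col18a1, 3 of the 20 collagen genes it tested, against 479 of 7789 genes in all. Over the 15 alternative settings Col3a1 lost its call in 6 and Col5a3 in 8, and their log2 changes stayed between 0.46 and 0.86 and between 0.38 and 0.62.

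**Figure D5:**
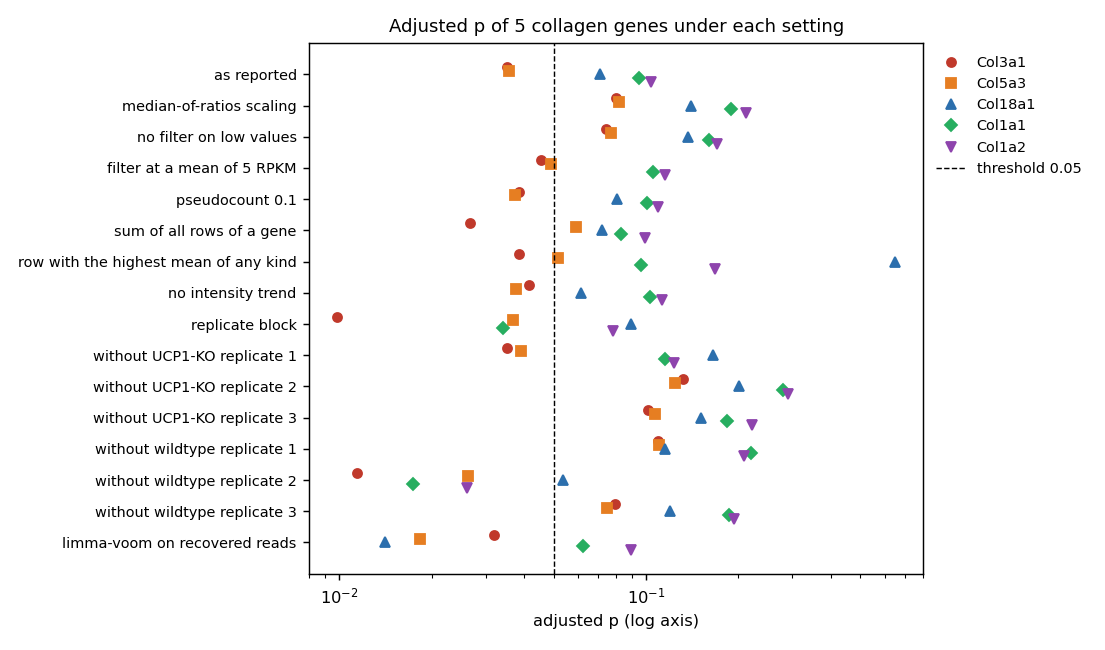
Adjusted p of 5 collagen genes, on a log axis, as reported and under each of the 15 alternative settings, with the threshold of 0.05 as a dashed line. Points left of the line are calls, which Col3a1 keeps under 9 alternatives and Col5a3 under 7.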

How the data were processed

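The authors deposited 1 table of RPKM values per transcript for the 6 libraries, written with decimal commas. Per the labels' protocols, total RNA was extracted with Trisure, column-purified and used for TruSeq RNA Sample Prep kit v2 libraries, and per the submitters' processing notes CASAVA and bcl2fastq were used. The aligner, the counter, the genome build and the strand setting were not given in the sources used here, and genes that share sequence or overlap are uncertain. Of 168326 rows, 13.8% named no gene and were left out. Of the rest, 1 row was kept per gene, RefSeq NM_ or NR_ rows first, then the highest mean. The deposited RPKM values were turned into log2(RPKM + 1), a group mean of 1 or more was required, and genotype was tested two-sided with limma 3.58.1 (intensity trend) in R 4.3.3, with Benjamini-Hochberg adjustment and a threshold of 0.05.

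Low RPKM values were multiplied by the transcript length of 46002 Ensembl rows. Between 96.0% and 96.2% of the 9327 to 10016 products checked per library were whole reads within 0.1, which gave the depth and the reads of the limma-voom alternative. That alternative kept genes with at least 10 reads in 3 libraries. Counting error at this depth is small for abundant genes and large for those of few reads. The script was tested on simulated data. The members, the gene lists and the tests were chosen with earlier results of these data known. Named were all members of the fibrillar and basement membrane classes, the called and most abundant members of the others, and the called genes of each list or, where none passed, the one with the smallest p. Alternatives were other scaling, filters, pseudocount, row choice, variance model, a replicate block, the limma-voom fit, and leaving out each library.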

Additional observations from a re-analysis of the deposited data

How the results depend on the processing

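With 3 libraries a group and adjusted p close to the threshold, the counts of called genes were sensitive to the processing. Directions mostly stayed the same, which several alternatives fix in advance, as described below. Over all genes, the 887 calls among 11562 tested became 454 among 6950 with a filter at 5 RPKM and 479 among 7789 with limma-voom. Those alternatives tested fewer genes, so their counts are not like for like. When 1 library was left out, calls numbered between 455 and 849, with 474 without knockout library 1 and 455 without knockout library 2. The 2 collagen calls, both fibrillar, became 0 after median-of-ratios scaling, 0 without a filter, 1 (Col3a1) with all rows of a gene summed, 1 (Col3a1) with the row of the highest mean, and between 0 and 4 when 1 library was left out. For basement membrane genes the count of 0 became 1 (Col18a1) with limma-voom, and for other collagen genes it was 0 in every alternative. The 3 calls of the 6 partner lists became 1 after scaling, without a filter and with the replicate block. They numbered between 0 and 4 when 1 library was left out (0 without knockout library 1 or 2). The filter at 5 RPKM left 1 call, Sparc, but it removed Sec24d and Ddr1 before the test, as their group means were below 5 RPKM. Ddr1 lost its call in 10 of 14 alternatives, Sparc in 9 of 15 and Sec24d in 2 of 13. The log2 change of Col20a1 turned to 0.0023 with rows summed and to 0.19 with the highest row, and that of Col27a1 to -0.020 after scaling and, when 1 library was left out, ran from -0.16 (without wildtype library 3) to 0.20. The other 508 of 512 values of single genes kept their sign. Changing only the filter, the intensity trend or the block leaves the log2 change as it is, so those values could not turn. The remaining alternatives reuse the same libraries. The causes were not tested.

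The replicate numbers did not pair the libraries: same-numbered libraries correlated at 0.092, 0.038 and -0.018 in their deviations from the group means, and not every library correlated best with its own number. With the replicate number as a block, 775 genes and 3 collagen genes were called, all 3 fibrillar, with Col1a1 added (adjusted p = 0.0343), and 0 basement membrane and 0 other collagen genes. The depth limits the genes under 1 RPKM, which rest on few reads.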

Other observations

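Some genes that act on collagen or lie beside it in the matrix were chosen after their values were seen, and none of them passed the test with limma on all 6 libraries. P4ha1, the catalytic subunit of a prolyl hydroxylase that stabilises the collagen helix, was at 4.86, 5.67 and 6.09 RPKM in the knockout and 6.54, 8.17 and 14.8 RPKM in the wildtype libraries, the opposite order to the fibrillar genes, without overlap (log2 change -0.66, limma adjusted p = 0.136). Serpinh1, the collagen chaperone of the endoplasmic reticulum, was at 102, 113 and 105 RPKM against 110.2, 115 and 133 RPKM, which overlapped (log2 change -0.16, limma adjusted p = 0.328). Among basement membrane proteins other than collagen, the proteoglycan genes Hspg2 and Agrn and the linker gene Nid1 each had all knockout libraries above all wildtype libraries, with log2 changes of 0.29, 0.35 and 0.29 (limma adjusted p 0.0726, 0.0727 and 0.109). Agrn was called by limma-voom and by limma without knockout library 3, and Nid1 by limma without wildtype library 2. Lamb1, a laminin chain gene of the same list, had a log2 change of -0.20 (limma adjusted p = 0.301).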
